A study of Vitis x labruscana x Vitis vinifera with 36 samples.

Results

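Seedless and seeded berry flesh of the grape 'Shine Muscat' were compared at sampling stage 3 by RNA sequencing. The comparison rests on 3 libraries of seedless flesh against 3 libraries of seeded flesh, chosen by their labels alone, out of 36 libraries in the series. The remaining libraries cover flesh at stages 1 and 4 and skin at all 3 stages, again in threes. All berries are of a single cultivar, which the labels describe as a cross of Vitis labruscana with Vitis vinifera. By the title of the series, berries without seeds had been treated and those with seeds had not. Which agent was used, at what dose, when each stage fell and how many vines or berries went into a library is not given in the sources used here. P-values therefore measure the spread between these libraries, which may be technical.

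In a grape berry the flesh is the storage tissue that surrounds the seeds. Developing seeds are a source of growth hormones such as gibberellins and auxins, which act on the flesh around them, and berries can also be made to set and grow without seeds. At the onset of ripening the flesh softens, loses acid and gains sugar, and in muscat grapes it and the skin build up aromatic terpenes.

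The table of read counts gives identifiers alone and does not pair them with names. Genes therefore appear here under their identifiers, without a stated role. In these identifiers the part before the letter g is shared by genes of one stretch, called a stem here, and the number after it runs along the stretch.

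The 6 libraries differed in depth along with the treatment. Seedless flesh had 4.97, 7.34 and 6.74 M counts (M, 1000000 counts), and seeded flesh had 4.10, 3.32 and 2.98 M. Libraries correlated at 0.977 to 0.983 within seedless flesh and at 0.961 to 0.967 within seeded flesh on log2 CPM, the counts of a gene per 1 M counts. The correlations between seedless and seeded libraries were lower, at 0.943 to 0.961. With every library thinned to the same depth, seedless flesh held 16714, 16854 and 16848 genes with at least 1 read and seeded flesh held 16288, 16126 and 16138.

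The tissue label was checked with genes chosen in other libraries, because lists of known markers could not be matched to identifiers. The 200 genes with the largest excess in skin over flesh at stages 1 and 4 were summed at stage 3. Their sum was 318 to 384 CPM in seedless flesh and 419 to 515 CPM in seeded flesh, against 15002 to 24843 CPM in seedless skin and 16744 to 20694 CPM in seeded skin. For scale, skin and flesh at stage 3 differed in 5946 of 14841 genes (40.1%) by edgeR. Of the 200 genes 29 were tested in flesh, where 0 were higher and 2 were lower in seedless berries by edgeR, with a median difference of -0.47 log2 units. Of the 200 genes with the largest excess in flesh, 195 were tested, and 34 were higher and 9 lower in seedless flesh, with a median of 0.33. Over all 13639 tested genes 5.15% were higher and 5.56% lower. The part of either list in the results below was not tested. Seed tissue markers could not be matched either, so whether seed tissue entered the seeded flesh was not tested.

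Seedless and seeded flesh differed in 1460 of 13639 tested genes, 10.7% of them, by edgeR's quasi-likelihood test at a Benjamini-Hochberg adjusted p under 0.05. In seedless flesh 702 genes were higher (5.15% of those tested) and 758 were lower (5.56%). The libraries did not overlap for 683 of the genes called higher and 742 of those called lower, while 29.9% of all tested genes had no overlap whatever their p. The median change was 1.83-fold among the genes that were higher and 1.61-fold among those that were lower. At least 2-fold changes were found for 278 genes that were higher and 191 that were lower, together 3.44% of those tested. Changes of at least 4-fold were found for 75 genes that were higher and 33 that were lower. In such bulk samples, fewer cells of a type and less RNA per cell cannot be told apart.

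The count changed with the libraries used, and leaving out a single one could lower or raise it. It was 964 without seedless replicate 1 and 972 without seeded replicate 1, and 1333 with the 6 libraries thinned to the same depth. The even split between directions depends on the scaling: with library totals in place of the trimmed mean of M-values (TMM), 1284 genes were higher and 439 lower, and the median of all genes moved up by 0.13 on the log2 scale. Directions below are relative to the TMM scaling.

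The calls leaned in opposite directions at low and high expression. Among 7241 genes with a mean of 5 to 50 CPM, 371 were higher and 278 lower in seedless flesh. Among 3343 genes of 50 to 500 CPM, 245 were higher and 382 lower. Among the 261 genes above 500 CPM, 13 were higher and 66 lower, so that 30.3% of this class was called. The median difference over all tested genes of this last class was -0.15 log2 units, against 0.01 for all 13639 genes.

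**Figure D1:**
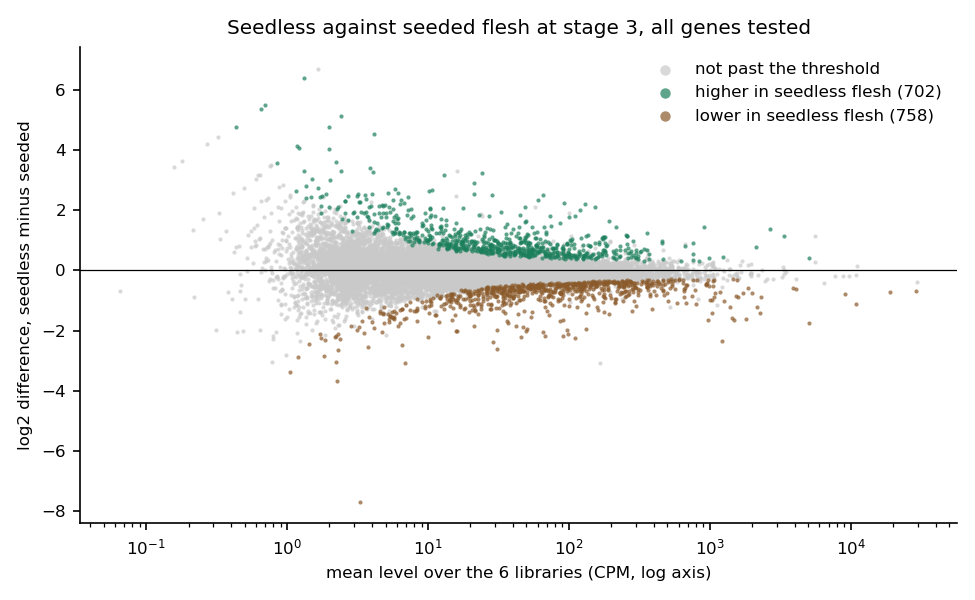
Each point is a gene tested in flesh at stage 3, with its mean level over the 6 libraries in CPM on a log axis across and its log2 difference, seedless minus seeded, upwards. Green points are the 702 genes called higher and brown points the 758 called lower in seedless flesh; at the right, above 500 CPM, brown points outnumber green ones by 66 to 13. The heights of genes with 0 reads in a group, among them the lowest brown point, depend on the fit and are no measured fold.

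The change was also visible in how each library's reads were spent. The 702 higher genes took 8.18%, 7.55% and 7.47% of reads in seedless flesh and 4.08%, 4.45% and 3.95% in seeded flesh. The 758 lower genes took 15.0%, 16.2% and 16.7% of reads in seedless flesh and 25%, 23.0% and 25.4% in seeded flesh. These shares describe the genes that the test picked and are no test of their own. The 10 lower genes with the largest loss made up 48.2% of the difference, which was -8.51 percentage points between the group means. The 10 most abundant genes of a library took 12.1% to 12.8% of reads in seedless flesh and 15.5% to 15.9% in seeded flesh.

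Rows with ENSRNA identifiers took 1.22%, 0.666% and 0.899% of reads in seedless flesh and 0.455%, 0.434% and 0.304% in seeded flesh. Of 39 such rows tested, 7 were higher and 0 lower by edgeR, while 5.15% of all tested genes were higher and 5.56% lower. Without these rows the comparison still called 1447 genes.

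Where libraries did not overlap and the mean reached 5 CPM, the largest rises came from neighbours in a single stem. VIT_13s0019g02770 had 57.7, 42.4 and 31.2 CPM in seedless flesh, against 4.14, 7.24 and 2.19 CPM in seeded flesh. Every seedless library was thus above every seeded one, and the difference was 3.25 ± 0.51 log2 units (SE; n = 3 each; edgeR adjusted p = 0.00057). VIT_13s0019g02760 had 29.4, 23.2 and 17.6 CPM in seedless flesh, against 2.07, 5.26 and 0.365 CPM in seeded flesh, a rise of 3.16 ± 0.46 log2 units (edgeR adjusted p = 1.1e-05). The seeded values spread widely, from 0.365 CPM in one library to 5.26 CPM in another, and still stayed below the seedless ones.

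The largest falls under the same limits were in genes of different stems. VIT_14s0219g00130 had 0.796, 1.89 and 1.44 CPM in seedless flesh, against 8.54, 6.25 and 22.2 CPM in seeded flesh. The difference was -3.07 ± 0.47 log2 units (SE), with an edgeR adjusted p of 1.5e-05, and 28 reads in all lay behind its seedless level. VIT_01s0137g00240 had 4.97, 13.0 and 7.66 CPM in seedless flesh, against 48.9, 51.3 and 60.9 CPM in seeded flesh, a fall of 2.61 ± 0.27 log2 units (edgeR adjusted p = 9.4e-08). The 8 largest rises by the same rule lay between 2.56 and 3.25 log2 units and the 8 largest falls between -3.07 and -2.2. All 8 in each direction had edgeR adjusted p of 0.028 or less.

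Of these 4 genes, VIT_13s0019g02770 and VIT_01s0137g00240 followed different courses over the stages. At stage 1 VIT_13s0019g02770 had 7.0, 16.6 and 16.2 CPM in seedless flesh, against 103, 21.5 and 30.2 CPM in seeded flesh, so it was lower in seedless flesh then (-1.93 ± 0.50 log2 units; edgeR adjusted p = 0.015). At stage 4 it lay between 1.92 and 3.12 CPM in seedless flesh and between 1.42 and 3.38 CPM in seeded flesh, and the groups overlapped. The difference at stage 3 was itself unlike that at stage 1 by 5.18 ± 0.72 log2 units (edgeR adjusted p = 0.00033). Against stage 4 it lay 3.14 ± 0.97 log2 units higher, which did not pass (edgeR adjusted p = 0.095). VIT_01s0137g00240 kept its direction, with 33.5, 43.5 and 36.9 CPM in seedless flesh, against 117, 117 and 108 CPM in seeded flesh at stage 1. It was also lower in seedless flesh at stage 4, at 0.262, 2.27 and 1.57 CPM against 8.30, 2.37 and 4.87 CPM in seeded flesh, and its stage 3 difference did not pass the test against either other stage (edgeR adjusted p = 0.086 and 0.54). Averaged over the treatments, its level changed by -4.49 ± 0.24 log2 units between stages 1 and 4, with an edgeR adjusted p of 4.4e-15. For VIT_14s0219g00130 the differences at stages 1 and 4, -0.91 and -1.87 log2 units, did not pass (edgeR adjusted p = 0.22 and 0.11). Its stage 3 difference was unlike that at stage 1 (edgeR adjusted p = 0.041) and did not pass against stage 4 (0.55).

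**Figure D2:**
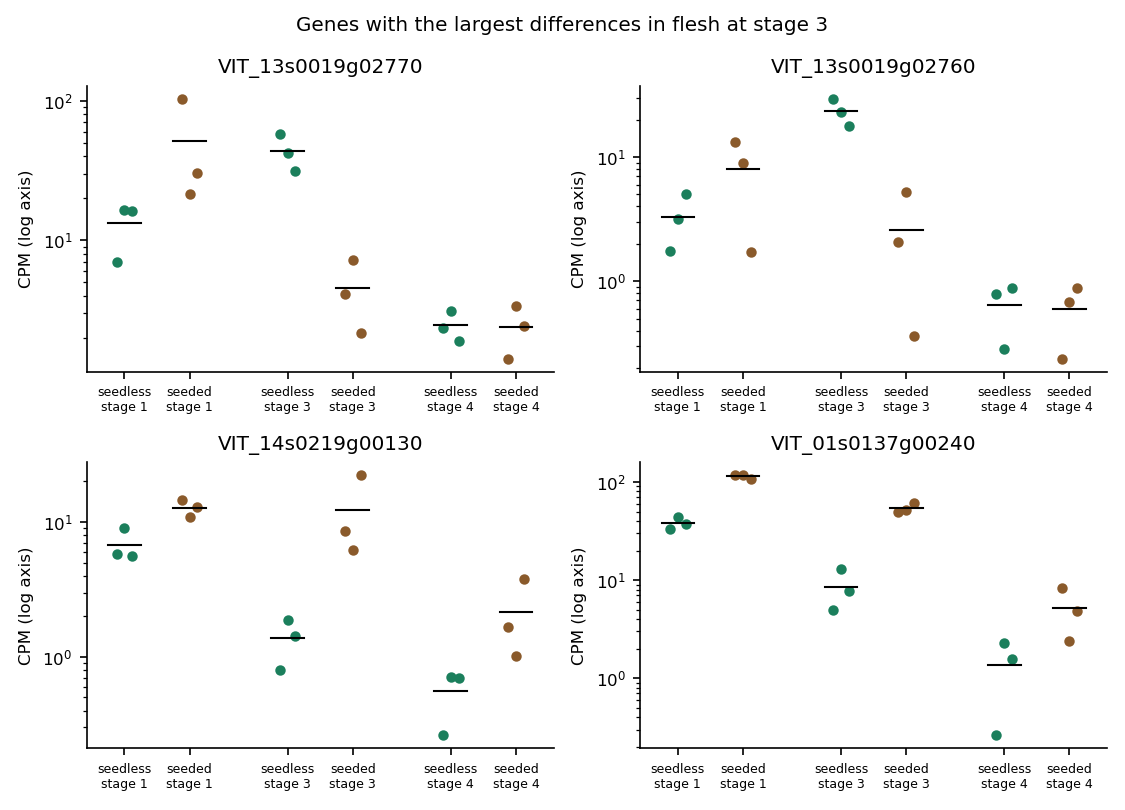
CPM on a log axis in each of the 18 flesh libraries for the 2 genes with the largest rise (top) and the 2 with the largest fall (bottom) at stage 3; points are libraries and bars are group means. VIT_13s0019g02770 is lower in seedless flesh at stage 1 and higher at stage 3, while VIT_01s0137g00240 is lower in seedless flesh at every stage.

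A few called genes had no read at all on one side. They were chosen after their values were seen, and the bound given for each sets 3 reads over a group against the reads of the other group. VIT_05s0077g00430 had 0 reads in the 3 seedless libraries, against 17, 16 and 28 reads in the seeded ones, and was thus at least 37.2-fold lower in seedless flesh (edgeR adjusted p = 7.5e-06). Elsewhere it was nearly silent: in flesh its counts were 2, 0 and 0 in seedless and 0, 1 and 0 in seeded libraries at stage 1, and 1, 2 and 0 in seedless and 0, 0 and 2 in seeded libraries at stage 4. In skin at stage 3 it had 0 reads in seedless and 0, 0 and 2 reads in seeded berries. The difference at stage 3 was unlike that at stage 4 (edgeR adjusted p = 0.037), while the comparison with stage 1, where seeded libraries were shallow, did not pass (edgeR adjusted p = 0.10). The comparison with skin did not pass either, and its fitted size of -5.06 ± 13199.8 log2 units is not usable.

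In the other direction, 4 of 9 tested genes with 0 reads in seeded flesh were called higher, while 5.15% of all 13639 tested genes were. Choosing genes by 0 seeded reads allows no other direction. The seeded libraries were also shallower, so 0 reads are reached more easily there. VIT_11s0037g00290 had 10, 26 and 17 reads in seedless flesh against 0 in each seeded library, at least 9.65-fold higher (edgeR adjusted p = 0.0022). It was not silent in seeded flesh at stage 4, with 2, 8 and 16 reads there against 8, 20 and 17 in seedless flesh. VIT_18s0001g00680, VIT_06s0004g03400 and VIT_15s0048g02640 had 27, 24 and 16 reads in seedless flesh, at least 4.91-fold, 4.37-fold and 2.91-fold higher (edgeR adjusted p = 0.0075, 0.021 and 0.044). The bounds allow for counting error on the side with 0 reads alone and take the reads of the other group as exact. They use library totals without TMM, and reads of a library are not independent molecules.

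Some of the called genes stood near each other. A run was defined as 3 or more genes called in the same direction within 10 consecutive identifiers of a stem. There were 30 runs of genes that were higher in seedless flesh, which held 106 of the 702 (15.1%). There were 15 runs of genes that were lower, which held 52 of the 758 (6.86%). How many called genes random placement would put in runs was not computed, so neither share by itself shows grouping beyond that. Runs can hold near-identical copies between which reads are split, and this could not be assessed, so the genes of a run are not separate pieces of evidence.

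The run in stem VIT_13s0019 held 8 called genes among 10 tested, with rises of 1.08 to 3.25 log2 units and a highest edgeR adjusted p of 0.015. Their summed level at stage 3 was 1154, 1046 and 773 CPM in seedless flesh, against 493, 444 and 221 CPM in seeded flesh. At stage 1 the order was the opposite, with 452, 686 and 563 CPM in seedless flesh, against 2718, 2094 and 2291 CPM in seeded flesh, and 5 of the 8 genes were called lower in seedless flesh by edgeR. VIT_13s0019g02760 did not pass there (edgeR adjusted p = 0.28). By stage 4 the sum was 61.9 to 83.8 CPM in seedless flesh, against 31.2 to 54.4 CPM in seeded flesh. All 8 genes had a stage 3 difference unlike that at stage 1 by edgeR, and 0 of the 8 had one unlike that at stage 4. All 8 were also higher in seedless skin at stage 3. For scale here and in the runs below, 8.03% of tested genes had a difference unlike stage 1 and 4.07% unlike stage 4. Among the 1460 genes called at stage 3 these shares were 24.5% and 25.6%, the closer scale for genes chosen by that call. Of all tested genes, 17.1% were called at stage 1, 3.7% at stage 4 and 10.6% in stage 3 skin. In that skin, 288 of 678 genes called higher in flesh were called higher, and 298 of 753 called lower were called lower.

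The run in stem VIT_04s0008 was also higher in seedless flesh at stage 3 and lower at stage 1. Its 7 called genes summed to 1239, 1083 and 1006 CPM in seedless flesh, against 629, 599 and 514 CPM in seeded flesh at stage 3. At stage 1 they summed to 587, 753 and 714 CPM in seedless flesh, against 1950, 1848 and 1543 CPM in seeded flesh. At stage 4 the sums overlapped, with 493, 517 and 532 CPM in seedless flesh and 383, 504 and 430 CPM in seeded flesh. By edgeR, 5 of the 7 were called lower and 1 higher in seedless flesh at stage 1. A stage 3 difference unlike that at stage 1 was found for 6 of the 7, and one unlike that at stage 4 for 1. All 7 were higher in seedless skin at stage 3.

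The run in stem VIT_12s0057 was higher in seedless flesh at stage 3 without such a turn. Its 5 called genes summed to 650, 662 and 614 CPM in seedless flesh, against 281, 438 and 349 CPM in seeded flesh. At stage 4 the sum was 603, 543 and 431 CPM in seedless flesh, against 81.1, 87.9 and 100 CPM in seeded flesh, and edgeR called all 5 higher there too. For 4 of the 5 the difference at stage 4 was unlike that at stage 3 and was the larger one in the median, at 2.56 against 0.91 log2 units. In skin at stage 3 none of the 5 passed edgeR's adjusted threshold, with a median difference of 0.33 log2 units.

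The run in stem VIT_02s0025 was the largest group of neighbours that was lower in seedless flesh. It held 8 called genes among 14 tested, with falls of 0.68 to 2.56 log2 units, and 1 of the other tested genes was called higher. Their summed level was 1964, 2953 and 2800 CPM in seedless flesh, against 7496, 7910 and 9586 CPM in seeded flesh. In seeded flesh the sum was higher at stage 3 than at stage 1 (2131, 4875 and 4032 CPM) or stage 4 (4701, 3316 and 5506 CPM). In seedless flesh it was instead highest at stage 1, at 5296, 5148 and 5005 CPM, and lowest at stage 4, at 1665 to 1709 CPM. By edgeR 4 of the 8 had a stage 3 difference unlike that at stage 1, and 1 had one unlike that at stage 4. In skin at stage 3, 5 of the 8 were also lower in seedless berries.

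**Figure D3:**
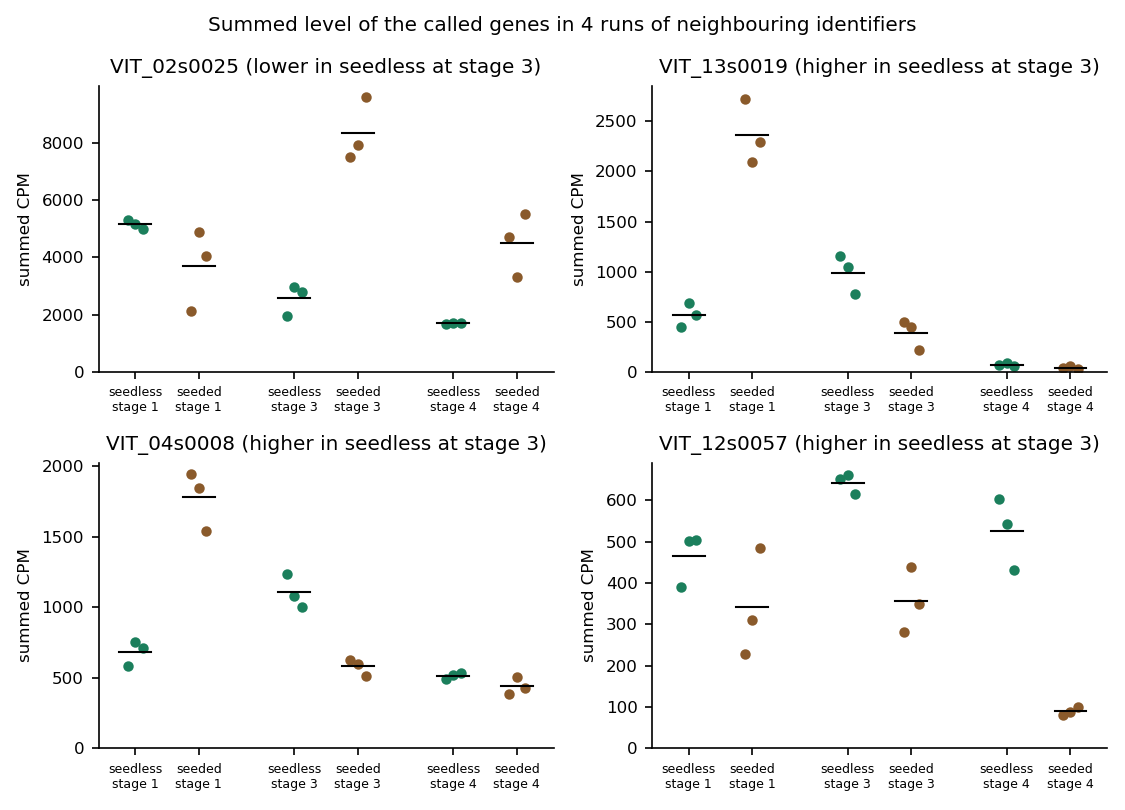
Summed CPM of the called genes of 4 runs of neighbouring identifiers in each flesh library, by treatment and stage; points are libraries, bars are group means and the vertical axis starts at 0. The genes were chosen by their stage 3 values, so the stage 1 and stage 4 points are the ones that the choice did not use.

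Neighbours did not always move together. Of 7773 pairs of consecutive identifiers with both genes tested, 74 had both genes called in the same direction and 56 had them called in opposite directions. An abundant pair of this kind, singled out after its values were seen, was VIT_19s0090g01340 and VIT_19s0090g01350. The first took 0.748%, 0.653% and 0.661% of reads in seedless flesh against 0.990%, 1.19% and 1.04% in seeded flesh, a fall of 0.78 ± 0.22 log2 units with an edgeR adjusted p of 0.035. The second took 0.481%, 0.464% and 0.463% of reads in seedless flesh against 0.164%, 0.230% and 0.186% in seeded flesh, a rise of 1.14 ± 0.20 log2 units (edgeR adjusted p = 0.0014). Together they held much the same part of a library, 1.12% to 1.23% in seedless and 1.15% to 1.42% in seeded flesh. The second gene's part of the pair was 39.1% to 41.5% in seedless flesh and 14.2% to 16.2% in seeded flesh. In skin at stage 3 it was 51.9% to 60.4% in seedless and 17.7% to 19.6% in seeded berries. Whether reads are divided between these genes by the counting was not tested.

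To place the stage 3 difference along the stages, genes were listed by their change between stages 1 and 4 in flesh. This change is called ripening here, although which stages span ripening is not given in the sources used. With both treatments averaged, 6651 genes (48.8% of those tested) changed between those stages by edgeR. Requiring at least 2-fold and a mean of at least 5 CPM left 756 genes that rise and 1114 that fall during ripening. That mean was taken over all flesh libraries, those of stage 3 included. A gene could thus pass the 5 CPM limit through its stage 3 level, and how many did so was not counted.

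At stage 3, more of the ripening-up genes were higher than lower in seedless flesh, and more of the ripening-down genes were lower than higher. Of the 756 ripening-up genes, 157 were higher (20.8%) and 12 lower (1.59%) in seedless flesh, and their median difference was 0.32 log2 units. Of the 1114 ripening-down genes, 95 were higher (8.53%) and 219 lower (19.7%), with a median difference of -0.21. Over all 13639 genes these shares were 5.15% and 5.56%, with a median of 0.01. Skin at stage 3, in other libraries, gave medians of 0.22 for the ripening-up and -0.22 for the ripening-down genes, against 0.00 (0.00196) for all genes. Most of the genes called in flesh lay outside these lists, 450 of the 702 that were higher and 527 of the 758 that were lower. Of all 13639 tested genes 11769 lay outside them, a larger part than among the called genes.

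The ripening index of a library was taken as the mean log2(CPM + 1) of the ripening-up genes less that of the ripening-down genes. At stage 3 it was -0.56, -0.76 and -0.48 in seedless flesh, against -1.11, -1.07 and -1.18 in seeded flesh. The means were -0.60 ± 0.14 and -1.12 ± 0.06 (SD, n = 3 each), and the libraries did not overlap. The 95 genes that fall in ripening yet were higher in seedless flesh included the VIT_13s0019 genes named above, so the index does not speak for each gene. Of these, VIT_13s0019g02760 reached the 5 CPM limit only through stage 3, where it averaged 23.4 CPM in seedless flesh. At stages 1 and 4 it averaged 3.31 and 0.647 CPM in seedless and 7.93 and 0.6 CPM in seeded flesh.

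The treatments lay apart on this index at stages 1 and 3. At stage 1 it was -1.34 ± 0.06 in seedless and -2.85 ± 0.06 in seeded flesh, and at stage 4 it was 0.87 ± 0.16 in seedless and 1.16 ± 0.26 in seeded flesh. The seedless minus seeded difference was thus 1.51, 0.52 and -0.28 at stages 1, 3 and 4, and in flesh the libraries overlapped at stage 4 alone of these stages. Skin had differences of 0.80, 0.39 and -0.29 at the same stages. The genes were chosen by their change between stages 1 and 4, with a limit on a mean level that included stage 3. The seeded stage 1 flesh libraries were also shallow (0.609 to 1.25 M), so the end points are a description. The stage 3 difference was 0.29 with ripening genes chosen in skin and 0.67 with genes chosen in seedless flesh alone.

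**Figure D4:**
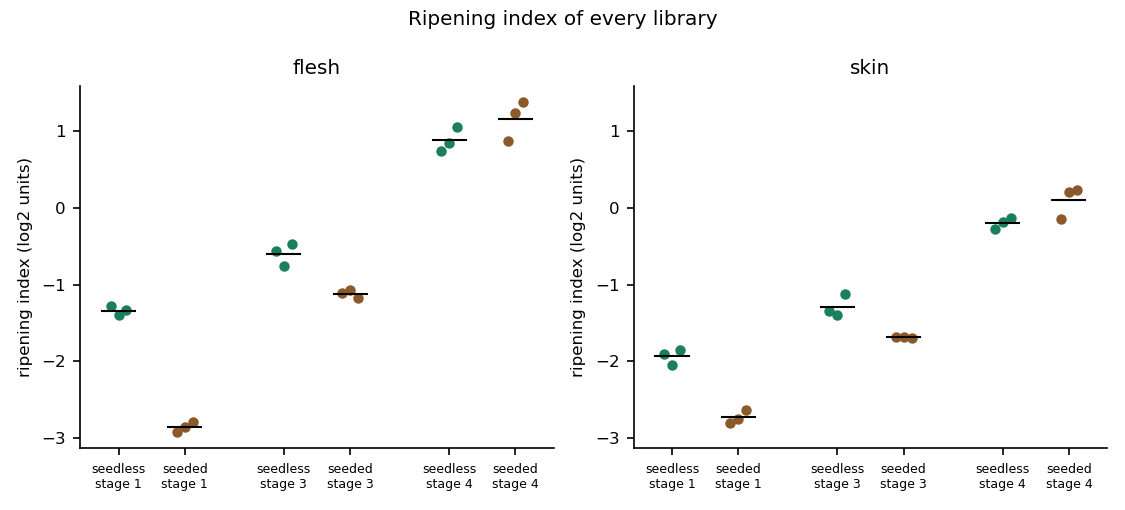
Ripening index of each library in log2 units, with flesh at the left and skin at the right; points are libraries and bars are group means. At stage 3 the seedless flesh libraries lie between -0.76 and -0.48 and all lie above the seeded ones, while at stage 4 the groups overlap.

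The difference at stage 3 was compared with that at the other stages by a test of the change itself. On their own, stage 1 flesh had 2339 called genes (17.1%) and stage 4 flesh had 505 (3.7%). The seedless-against-seeded difference at stage 3 was unlike that at stage 1 for 1095 of 13639 genes (8.03%) and unlike that at stage 4 for 555 (4.07%). Of the 1460 genes called at stage 3, 357 (24.5%) differed from stage 1 in this way, and 272 of these had the opposite sign at stage 1. Both signs were past the edgeR threshold on their own for 113. Against stage 4, 374 of the 1460 (25.6%) had an unlike difference, and 287 of them had the opposite sign at stage 4, for 28 of which that opposite difference passed the test. Choosing genes by their stage 3 call favours a large value at stage 3, so these shares lie above the background for that reason as well. The stage 4 count was 354, 340 and 353 without seedless replicate 1, seedless replicate 3 or seeded replicate 3.

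VIT_07s0005g01980 turned between stages 1 and 3. It had 2.33, 3.16 and 3.63 CPM in seedless flesh and 17.5, 28.7 and 13.8 CPM in seeded flesh at stage 1. At stage 3 it had 21.3, 19.0 and 15.2 CPM in seedless flesh, against 2.33, 6.25 and 0 CPM in seeded flesh. The stage 3 difference lay 5.29 ± 0.75 log2 units above that of stage 1 (SE; edgeR adjusted p = 1.6e-05). VIT_14s0108g00800 had 11.1, 15.3 and 12.6 CPM in seedless flesh, against 0, 1.79 and 0 CPM in seeded flesh at stage 1, from 1 read on the seeded side. At stage 3 it had 16.1, 14.2 and 13.9 CPM in seedless against 8.02, 8.56 and 10.2 CPM in seeded flesh, so it was higher in seedless flesh at both stages and by less at stage 3 (edgeR adjusted p = 0.0015 for the change).

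Between stage 3 and stage 4 the test separated genes that turned. VIT_04s0079g00410 had 23.7, 24.0 and 22.7 CPM in seedless flesh, against 12.2, 13.8 and 13.5 CPM in seeded flesh at stage 3. At stage 4 it had 18.3, 16.9 and 19.2 CPM in seedless flesh, against 65.2, 67.3 and 53.8 CPM in seeded flesh, a change of the difference of 2.61 ± 0.25 log2 units (SE; edgeR adjusted p = 6.8e-09). Its seeded level was thus several times higher at stage 4 than at stage 3, and its seedless level was slightly lower. VIT_03s0063g01760 had 35.0, 39.8 and 33.8 CPM in seedless flesh, against 44.0, 66.5 and 82.8 CPM in seeded flesh at stage 3, and 46.6, 40.5 and 19.6 CPM in seedless against 2.61, 6.43 and 5.54 CPM in seeded flesh at stage 4. Its difference at stage 3 lay 3.71 ± 0.42 log2 units below that at stage 4 (edgeR adjusted p = 7.7e-06).

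Skin of the same stage was used as a second tissue with libraries of its own. Of the 702 genes that were higher in seedless flesh 678 were also tested in skin, where 288 were called higher and 4 lower. Of the 758 that were lower 753 were tested, and 298 were called lower and 3 higher, while 10.6% of 14193 genes were called in skin in all. Counting signs alone, 89.7% of 1431 flesh calls had the same sign in skin, against 66.9% of all 13228 genes tested in both tissues. Whether both tissues of a library number were taken off the same berries is not stated. Changes were smaller in skin in the median, at 0.52 log2 units for the higher and -0.37 for the lower genes, against 0.88 and -0.68 in the flesh in which they were chosen.

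A test of the difference between the tissues called 66 of 14841 genes (0.445%), and 1465 (9.87%) had an unadjusted p under 0.05. Of the 1460 flesh calls 40 were among the 66, and 7 of these were called in the opposite direction in skin. The count of 66 fell to 36 and 42 without seedless replicate 1 or 3 and to 42 and 37 without seeded replicate 1 or 3. It rose to 100 without seeded replicate 2. With no filter it was 212, with DESeq2 163, and with all libraries at one depth 13. A replicate block of flesh and skin, added after seeing the data, gave 275, so the count depends strongly on the method.

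VIT_17s0000g09800 moved in opposite directions in the tissues. It had 29.8, 19.7 and 27.0 CPM in seedless flesh, against 89.6, 96.4 and 129 CPM in seeded flesh, a fall of 2.04 ± 0.31 log2 units with an edgeR adjusted p of 0.00056. In skin it averaged 77.8 ± 4.87 CPM in seedless and 31.5 ± 4.00 CPM in seeded berries (SD, n = 3 each), a rise of 1.31 ± 0.16 log2 units (edgeR adjusted p = 2e-06). The flesh difference less the skin difference was -3.36 ± 0.38 log2 units (edgeR adjusted p = 6.5e-05). VIT_00s0323g00070 fell in flesh by 2.2 ± 0.33 log2 units (edgeR adjusted p = 0.00034), at 13.3, 20.8 and 14.4 CPM in seedless against 48.4, 77.3 and 102 CPM in seeded flesh. In skin it was far more abundant, at 170 ± 15.6 CPM in seedless and 122 ± 8.96 CPM in seeded berries, a difference of 0.47 log2 units that did not pass (edgeR adjusted p = 0.097). The difference between tissues passed for this gene (edgeR adjusted p = 0.00071) but not with all 36 libraries thinned to the smallest depth (0.053).

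VIT_13s0019g04460 was higher in seedless flesh and lower in seedless skin. It had 13.3, 9.85 and 6.79 CPM in seedless flesh, against 0.259, 0 and 4.74 CPM in the seeded libraries, where 13 of its 14 reads came from replicate 3 (edgeR adjusted p = 0.028). In skin it averaged 5.70 ± 1.93 CPM in seedless and 14.7 ± 5.11 CPM in seeded berries and was called lower (edgeR adjusted p = 0.0074). Its tissue difference (edgeR adjusted p = 0.019) was lost without seedless replicate 1 or seeded replicate 1 (0.054 and 0.078). VIT_06s0004g01180 differed between tissues (edgeR adjusted p = 0.019, and 0.21 at the smallest depth). It had 12.7 ± 1.97 CPM in seedless flesh, against 19.9 ± 4.22 CPM in seeded flesh, which did not pass (edgeR adjusted p = 0.13), and 0.602 ± 0.296 CPM in seedless against 8.23 ± 2.27 CPM in seeded skin.

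**Figure D5:**
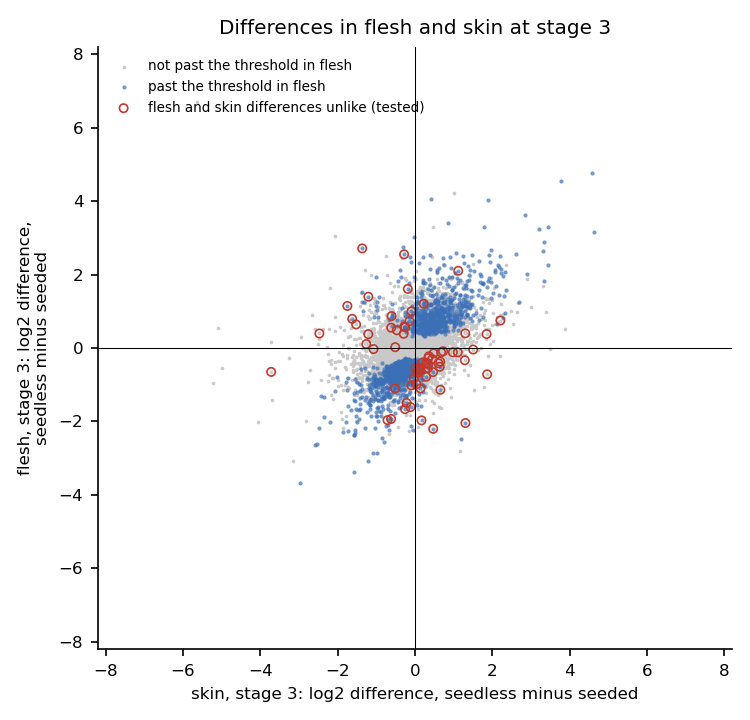
Log2 difference, seedless minus seeded, at stage 3 in skin (across) and flesh (up) for 13228 genes tested in both tissues. Blue points passed the threshold in flesh and lie mostly in the quadrants of equal sign; red circles mark 64 genes whose flesh and skin differences were unlike by the test.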

How the data were processed

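The authors deposited a table of raw, unnormalized read counts per gene. The submitters' processing notes name fastp 0.20.0, HISAT2 2.2.1 and featureCounts, and per the labels' protocols libraries were made with Lasy-seq from total RNA of skin and of flesh. Build, annotation, strand setting and the handling of multiply matching reads are not given in the sources used. The table has 30661 rows, of which 690 carry ENSRNA identifiers, and 0 rows without a gene. Columns were tied to samples by treatment, stage, tissue and number.

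Flesh (18 libraries, 6 groups) was fitted with edgeR 4.0.16 in R 4.3.3: filterByExpr (minimum count 10), TMM factors, robust quasi-likelihood F-tests and Benjamini-Hochberg adjustment over all genes, threshold 0.05. Skin was fitted alike, and the tissues were compared over all 36 libraries. The CPM are TMM-scaled within each tissue. The SE is the log2 difference over the square root of F. Every pair of libraries within the groups compared varied by at least 4.73 times counting noise.

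Genes named for size of change passed the threshold with a mean of at least 5 CPM and no overlap of libraries, and the 2 largest each way are given, although the rule reached to 8 and to the 5 most abundant. The same rule was carried over to the differences between stages and tissues after values were seen. Genes with 0 reads in a group and the neighbouring pair fall outside the rule. The comparison and the rules were chosen with earlier results of these data known. Lists of gene products, including markers of seed and skin, found no match among the identifiers and give no result. Alternatives covered scaling, filters, depth, DESeq2 1.42.0, a replicate block and each library left out.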

Additional observations from a re-analysis of the deposited data

Results flagged for a closer look

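The seedless-against-seeded difference itself differed between stages or tissues, by a test of the change, for the following results. Against stage 1 there were 1095 such genes, against stage 4 there were 555, and against skin there were 66. The 4 genes named against stage 1 were VIT_07s0005g01980 (5.29 log2 units), VIT_13s0019g02770 (5.18), VIT_14s0108g00800 (-4.13) and VIT_00s0347g00040 (-6.35). For VIT_00s0347g00040 the fitted size depends on the handling of 0 reads in seeded flesh at stage 1, and its call was lost in 7 of 14 alternatives (edgeR or DESeq2 adjusted p up to 0.37). The 4 named against stage 4 were VIT_14s0060g00810 (2.76), VIT_04s0079g00410 (2.61), VIT_07s0129g00240 (-3.97) and VIT_03s0063g01760 (-3.71). The call of VIT_14s0060g00810 was lost in 4 of 14 alternatives and that of VIT_07s0129g00240 in 3 of 13. The 4 named against skin were VIT_13s0019g04460 (4.07), VIT_06s0004g01180 (3.06), VIT_17s0000g09800 (-3.36) and VIT_00s0323g00070 (-2.68).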

How the results depend on the processing

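The count of 1460 stayed within 1.5 times under RLE size factors, library totals (1723, of which 1141 are among the 1460), either filter, DESeq2 (1651), the 6 libraries alone (1575) and removal of ENSRNA rows. With all flesh libraries at the smallest depth 539 genes were called, at a threshold of 0.01 there were 771, and 469 changed at least 2-fold. Leaving out a stage 3 flesh library gave 964 to 1500 calls. The difference from stage 1 was called for 518 genes at one depth and 850 to 1108 with a library left out; that from stage 4 for 159 and 340 to 626; that from skin for 13 and 36 to 100, and for 212 with no filter and 163 with DESeq2. The ripening count was 3987 at one depth and 4845 to 5888 without a replicate. The ripening index difference was 0.52, moved to 0.29 with skin genes and 0.67 with seedless flesh genes, and was 0.46 to 0.60 with a library left out. The cause of these shifts was not tested, beyond the fewer reads or samples. The higher against lower split changed by over 10 points with library totals, to 680 and 380 against stage 1, 286 and 239 against stage 4, 35 and 31 against skin, and 5010 and 2398 for ripening, against 500 and 595, 240 and 315, 25 and 41, and 3353 and 3298 with TMM. Other shifts were 558 and 466 against stage 1 with RLE and 671 and 539 with DESeq2. The 4 genes named for stage 3 kept their call and direction in all 66 values computed, and 0 named genes reversed. With all flesh libraries at the smallest depth, VIT_13s0019g02760 and VIT_14s0219g00130 did not pass the filter and gave no value. At stage 3 the seedless and seeded flesh libraries of a number did not deviate together (correlations across genes -0.05, -0.06 and 0.05), and none of 16 sets of same-numbered libraries, over treatments, stages and tissues, had all correlations over 0.1. The limit of 0.1 was a choice, and a weaker tie between same-numbered libraries would fall below it. With the replicate block 1409 genes were called, and 1050, 555 and 99 for the differences from stage 1, stage 4 and skin. Flesh and skin of a number did correlate weakly at stage 3 (0.06 to 0.09 in seedless and 0.08 to 0.15 in seeded berries, against at most 0 between numbers). At stage 1 these correlations were 0.05 to 0.08 in seedless and 0.04 to 0.09 in seeded berries, against at most 0.01 between numbers. At stage 4 they were 0.03 to 0.07 and 0.03 to 0.16, against at most 0.03. This is a hint of pairing from the data and not the design. A replicate block of flesh and skin, added after seeing the data, called 275 genes for the difference from skin, all 66 among them. Of genes below 5 CPM 3.76% were called.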
